A study of Mus musculus with 13 samples.

Results

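The genes described here are the germline segments and constant regions of the mouse T cell receptor loci, read in CD4+ T cells that carry a transgenic receptor. Members were the entries of the gene table whose symbol begins with Tra, Trb, Trd or Trg followed by v, d, j or c, with Tradd left out. Of 270 such entries among 55774, 178 had at least 10 counts in at least 1 library and were kept, and 137 of those also passed the filter on low counts and were tested among 15781 genes. The kept set held 113 Trav, 21 Traj, 20 Trbv, 8 Trbj, 5 Trdv and 3 Trgv segments, both beta constant genes, 4 gamma constant genes, Trac and Trdc. No Trbd or Trdd segment was among the kept members.

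The T cells were naive CD4+ cells from the spleens of female NOD/ShiLtJ mice that carry Tg(TcraBDC2.5,TcrbBDC2.5)1Doi, so every library, controls included, holds cells with the BDC2.5 alpha and beta transgenes. In 4 libraries the T cells were alone, without macrophages, in 4 they shared a culture with islet macrophages of buffer-injected NOD mice, and in 5 with islet macrophages of NOD mice given 1 low dose of streptozotocin (STZ), a toxin of insulin-producing beta cells. Injection was at 4 weeks of age and islets were taken 10 days later, at 5.5 weeks. Co-cultures ran for 96 hours, after which viable cells positive for CD45, Thy1.2 and CD4 were sorted. No culture time is recorded here for the T cells alone. In comparisons with them, the macrophages and the time in culture therefore cannot be told apart. The labels name a batch for each library: all 4 libraries of T cells alone were of day 1, the control co-cultures were 3 of day 1 and 1 (replicate 3) of day 2, and the STZ co-cultures were 2 of day 1 (replicates 1 and 5) and 3 of day 2. The labels call the libraries biological replicates without saying whether each came from a mouse of its own, so the p-values below measure the spread between these libraries, and they do not say which promoter drives either transgene.

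A T cell receptor chain is encoded by a V and a J segment (with a D segment between them in the beta and delta chains) that are joined by recombination during thymic development and then spliced to a constant region. Conventional CD4+ T cells carry an alpha chain paired with a beta chain, and gamma-delta T cells carry the chains of the other loci. A rearranged beta transgene largely stops the rearrangement of the endogenous beta genes, whereas endogenous alpha rearrangement is known to be held back less strictly. BDC2.5 is a diabetogenic receptor that recognises an islet antigen; its beta chain uses the segment Trbv2 (Vβ4 in the older nomenclature) and its alpha chain a segment of the Trav7 family (Vα1).

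The sequences that lead each segment class are printed first, because the values below turn on how reads are divided among them. They come from the GENCODE vM21 transcripts of GRCm38, 5′ to 3′ on the coding strand, and each V sequence is the V exon without the leader exon. In the pair of Trav7 segments the capitals mark the 9 bases at which they differ over 288 bases. Trav7n-6 lies at chr14:53324921-53325208 and Trav7-6 at chr14:53717004-53717291, both on the plus strand.
Trav7n-6: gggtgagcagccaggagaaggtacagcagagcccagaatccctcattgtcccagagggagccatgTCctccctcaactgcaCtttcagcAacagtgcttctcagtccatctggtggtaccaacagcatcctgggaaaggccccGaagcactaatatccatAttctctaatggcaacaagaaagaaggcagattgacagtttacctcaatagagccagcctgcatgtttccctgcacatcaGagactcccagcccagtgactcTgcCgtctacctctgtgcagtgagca
Trav7-6: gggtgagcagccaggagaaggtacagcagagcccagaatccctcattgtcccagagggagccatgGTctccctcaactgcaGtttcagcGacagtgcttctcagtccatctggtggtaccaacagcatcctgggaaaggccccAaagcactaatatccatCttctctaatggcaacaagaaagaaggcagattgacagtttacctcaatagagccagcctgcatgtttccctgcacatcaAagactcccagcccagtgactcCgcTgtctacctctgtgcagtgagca
For Trbv2, at chr6:41047701-41047995 on the plus strand, the capitals mark the last TGT, which encodes the conserved cysteine that opens the third complementarity-determining region.
Trbv2: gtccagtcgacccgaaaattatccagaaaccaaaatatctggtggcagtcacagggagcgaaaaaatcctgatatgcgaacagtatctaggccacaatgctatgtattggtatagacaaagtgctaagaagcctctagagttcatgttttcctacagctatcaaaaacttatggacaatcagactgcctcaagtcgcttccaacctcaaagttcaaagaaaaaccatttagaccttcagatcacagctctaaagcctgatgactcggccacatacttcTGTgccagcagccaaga
For the J segments Traj22 (chr14:54197248-54197307) and Trbj1-2 (chr6:41534001-41534048), both on the plus strand, the capitals mark the match to TTN, GGN, any codon and GGN in a row, the bases of the phenylalanine-glycine motif that closes the same region. This pattern was present on the coding strand of 59 of the 80 annotated J segments (73.75%) and on the other strand of none.
Traj22: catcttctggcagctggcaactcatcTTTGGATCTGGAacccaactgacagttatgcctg
Trbj1-2: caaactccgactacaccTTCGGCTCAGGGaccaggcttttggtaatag

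Receptor transcripts made up about 1% of each library. They were 1.11%, 0.826%, 1.53% and 1.30% of all counts in the libraries of T cells alone, 0.991%, 0.948%, 1.27% and 1.09% in the control co-cultures, and 0.680%, 0.838%, 0.938%, 0.869% and 0.744% in the STZ co-cultures. Every STZ co-culture lay below every control co-culture, and both ranges overlapped that of T cells alone. Of the receptor counts, Trbc2 held 32.9%, Trac 28.2%, Trbv2 16.9% and Trbc1 8.28% on average over the 13 libraries. In bulk RNA, fewer cells expressing a gene and less RNA per cell cannot be told apart. Library totals ran from 17.3M to 61.3M counts, and receptor totals from 142917 to 607802 counts.

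The beta chain was dominated by one V segment. Trbv2 took 98.9%, 96.3%, 97.5% and 97.7% of Trbv counts in T cells alone, 99.3%, 99.1%, 98.9% and 99.6% in the control co-cultures, and 99.2%, 98.7%, 98.8%, 99.4% and 99.04% in the STZ co-cultures. The remaining 19 Trbv segments therefore shared between 0.401% and 3.65% of the class in any library, with the 3 highest shares in replicates 2 to 4 of T cells alone. The next segments were Trbv31, with a mean share of 0.257% of Trbv counts over all libraries, and Trbv19, with 0.246%. The Trbv2 share averaged 99.05 ± 0.279% in STZ co-cultures (SD, n = 5), 99.2 ± 0.300% in control co-cultures (SD, n = 4) and 97.6 ± 1.05% in T cells alone (SD, n = 4). It differed from T cells alone by 1.62 points in control co-cultures (exact two-sided permutation p = 0.0571) and by 1.44 points in STZ co-cultures (exact two-sided permutation p = 0.0238, adjusted 0.171 over the 9 share tests made), so neither difference passed the adjusted threshold. STZ and control co-cultures differed by 0.179 points in the other direction, with the STZ mean lower (exact two-sided permutation p = 0.389). Trbv2 shares no close copy in the annotation, its nearest neighbour by sequence being Trbv4 at 63.1% identity.

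Among the beta J segments Trbj1-2 led. It held 90.1%, 77.3%, 86.4% and 82.7% of Trbj counts in T cells alone, 86.5%, 88.5%, 80.4% and 87.1% in control co-cultures, and 91.2%, 84.5%, 85.9%, 87.0% and 85.1% in STZ co-cultures. The groups overlapped. These shares rest on only 151 to 510 Trbj counts a library, and the exact (Clopper-Pearson) 95% intervals were 6.02 to 10.2 points wide, against 0.0966 to 0.466 points for Trbv2. Such intervals cover counting error only, and the libraries carry no molecular identifiers in the labels. Trbj1-3 (3.26% of Trbj counts) and Trbj2-1 (3.09%) came next.

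**Figure D1:**
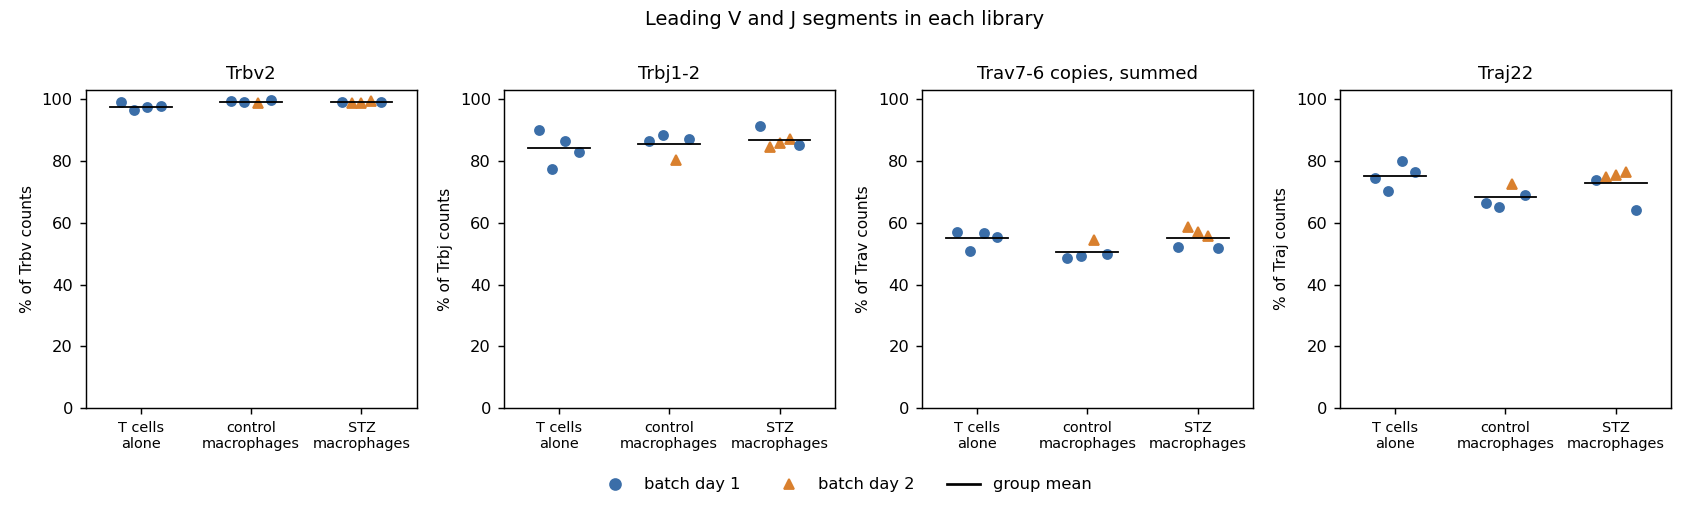
Share of the leading V and J segments within their segment class, in percent, for each library of the 3 groups. Circles are batch day 1, triangles batch day 2 and bars group means. Trbv2 stays between 96.3% and 99.6% of Trbv counts in all 13 libraries, and the summed Trav7-6 copies between 48.7% and 58.5% of Trav counts.

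The alpha V segments were spread more widely, with the Trav7 family in front. Trav7n-6 held 35.3%, 27.8%, 34.0% and 33.4% of Trav counts in T cells alone, 27.2%, 28.8%, 31.9% and 27.6% in control co-cultures, and 30.3%, 34.3%, 32.9%, 31.4% and 29.3% in STZ co-cultures. Trav7-6 held 14.0% and Trav7d-6 8.52% on average, and the 3 copies together made up 48.7% to 58.5% of Trav counts. Between 22 and 34 Trav segments a library reached 0.5% of the class, and 78 to 104 had at least 10 counts, whereas among the Trbv segments 1 reached 0.5% in 12 libraries and 2 did in replicate 2 of T cells alone. The 78 was in the library with the fewest Trav counts (13462) and the 104 in that with the most (65587), so that number may follow depth. Both Trav numbers count nearly identical copies separately.

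The means of the Trav7n-6 share were 31.7 ± 2.01% in STZ co-cultures (SD, n = 5), 28.9 ± 2.13% in control co-cultures (SD, n = 4) and 32.6 ± 3.35% in T cells alone (SD, n = 4). Within the co-cultures this share split by batch day without overlap, at 31.4% to 34.3% in the 4 libraries of day 2 and 27.2% to 30.3% in the 5 of day 1, and day 2 holds 3 of 5 STZ but 1 of 4 control libraries. Within day 1 the STZ mean was 29.8% (n = 2) and the control mean 27.9% (n = 3), and within day 2 the STZ mean was 32.9% (n = 3) and the single control library 31.9%. None of the pooled differences passed the threshold: exact two-sided permutation p was 0.0952 for STZ against control, 0.0857 for control against T cells alone and 0.587 for STZ against T cells alone. Over the 9 share tests, the adjusted values ran from 0.171 to 0.587, and the smallest p these designs allow is 0.0286 with 4 against 4 libraries and 0.00794 with 5 against 4. Permuting within batch day gave an exact two-sided p of 0.05 for STZ against control, which is at the threshold and not under it. Copies in this locus are nearly alike: of 111 kept Trav segments with a transcript sequence, 95 had another Trav segment at 95% identity or more and 38 had one at 100%. Counts of single Trav copies are therefore uncertain, and the sum over the 3 Trav7-6 copies depends less on how reads are divided among them. Trav7d-6 was not matched in GENCODE vM21, so its identity to Trav7n-6 and Trav7-6 was not measured. That sum was 55.0 ± 2.93% of Trav counts in STZ co-cultures (SD, n = 5), 50.6 ± 2.69% in control co-cultures (SD, n = 4) and 55.0 ± 2.81% in T cells alone (SD, n = 4). STZ exceeded control co-cultures by 4.43 points (exact two-sided permutation p = 0.0635), and control co-cultures differed from T cells alone by −4.38 points (exact two-sided permutation p = 0.0571). The sum also split by day in the co-cultures, at 54.6% to 58.5% in day 2 and 48.7% to 52.2% in day 1. Within day 1 the means were 52.0% for STZ and 49.3% for control, and within day 2 they were 57.0% for STZ and 54.6% in the single control library. Permuted within day, a test chosen after this split had been seen, the exact unadjusted p was 0.0250, the smallest this arrangement can give. The reference genome is that of another mouse strain (C57BL/6J), and how far NOD alleles move reads between copies was not tested.

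By family, Trav7 held 58.5 ± 2.69% of Trav counts in T cells alone (SD, n = 4), 53.7 ± 2.30% in control co-cultures (SD, n = 4) and 57.9 ± 2.69% in STZ co-cultures (SD, n = 5). Trav14 came second, with 15.1 ± 1.79%, 18.1 ± 1.67% and 18.4 ± 0.731% in the same order. Its highest library of T cells alone, at 16.9%, lay just under the lowest library of either co-culture group, at 17.01%. Trav9, Trav4, Trav16 and Trav6 followed with 2.90% to 4.03% each on average. These family shares are described without a test.

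**Figure D2:**
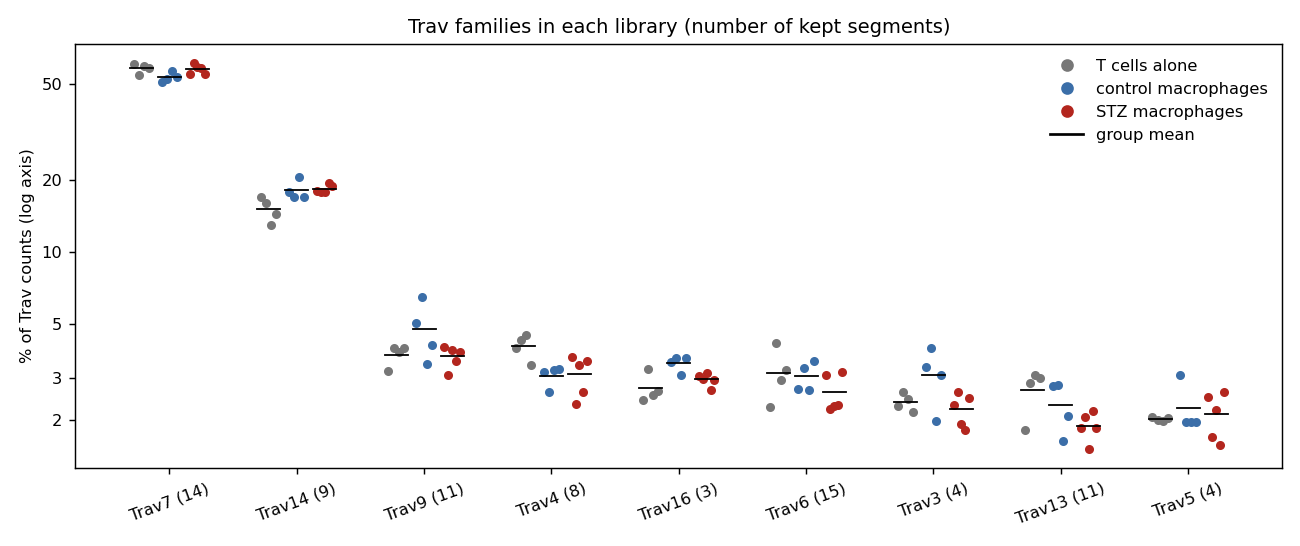
Share of each of the 9 most abundant Trav families in Trav counts, in percent on a log axis, with 1 point per library and bars for group means. The Trav7 family holds more than any other in all 13 libraries, and Trav14 is second.

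Alpha J usage was led by Traj22. Its share of Traj counts was 74.6%, 70.2%, 79.9% and 76.3% in T cells alone, 66.5%, 65.2%, 72.6% and 69.0% in control co-cultures, and 73.7%, 74.9%, 75.6%, 76.5% and 64.1% in STZ co-cultures. STZ replicate 5 stood below the other STZ libraries. Traj56 (3.57%) and Traj53 (3.22%) were next. The class held 354 to 961 counts a library, and the 95% intervals of the Traj22 share were 5.74 to 9.33 points wide. J segments are far shorter than V exons or constant regions, and shares are compared here only within a class.

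The constant genes of the alpha and beta chains were the most abundant members. Trac (chr14:54220521-54224206, plus strand) read 2668, 1862, 4037 and 3618 CPM (counts scaled to a common library total, with the library sizes adjusted by TMM) in T cells alone, 3067, 2350, 4885 and 3251 in control co-cultures, and 1843, 2716, 2691, 2373 and 2152 in STZ co-cultures. Trbc2 (chr6:41546730-41548352, plus strand) read 3629, 2151, 4560 and 3820 CPM in T cells alone, 3387, 3314, 5356 and 4003 in control co-cultures, and 2070, 2998, 3300, 2836 and 2273 in STZ co-cultures. For Trbc2 every STZ library was below every control library, and for Trac the groups overlapped. Trbc1 (chr6:41538218-41539881, plus strand) contributed 20.1% of the summed beta constant counts on average. That share was 20.7 ± 0.886% in STZ co-cultures (SD, n = 5), 19.2 ± 1.46% in control co-cultures (SD, n = 4) and 20.2 ± 0.372% in T cells alone (SD, n = 4). It did not pass the test between STZ and control (exact two-sided permutation p = 0.0794), control and T cells alone (exact p = 0.229) or STZ and T cells alone (exact p = 0.389). Per kilobase of exon, Trbc2 averaged 5116 CPM in T cells alone, 5802 in control and 3895 in STZ co-cultures, and Trac 3258, 3624 and 2519. The Trbc genes are 84.2% identical, so some reads may be shared between them.

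The largest increases over T cells alone were in genes of the gamma locus on chromosome 13. Trgc1 (chr13:19214103-19217024, plus strand) read 0.890, 0.399, 0.156 and 0 CPM in T cells alone, 72.5, 69.6, 253 and 94.8 in control co-cultures, and 83.0, 159, 167, 143 and 86.9 in STZ co-cultures. Trgc4 (chr13:19344558-19352756, plus strand) read 17.2, 2.48, 6.66 and 4.24 CPM in T cells alone, 109, 98.2, 395 and 123 in control co-cultures, and 70.4, 279, 310, 267 and 72.4 in STZ co-cultures. All co-cultures were above all libraries of T cells alone for both genes, and within the co-cultures the 4 libraries of batch day 2 were the highest. Trgc2 (chr13:19304649-19307551, minus strand) read 0.292 to 3.62 CPM in T cells alone and 44.2 to 213 in the co-cultures, and Trgc3 (chr13:19260884-19263528, plus strand) 0 to 0.735 and 3.68 to 17.99.

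Against T cells alone, Trgc1 was higher in control co-cultures by 7.93 on the log2 scale (SE 0.74, edgeR quasi-likelihood test, Benjamini-Hochberg adjusted p = 4.2e-06) and in STZ co-cultures by 7.72 (SE 0.74, edgeR adjusted p = 5.9e-06). For Trgc4 these differences were 3.82 (SE 0.48, edgeR adjusted p = 5e-05) and 3.26 (SE 0.50, edgeR adjusted p = 0.00022). Trgc2 was higher by 5.92 and 5.16 and Trgc3 by 5.02 and 4.28, all called. The V segments Trgv2 (4.03 in control and 4.22 in STZ co-cultures) and Trgv1 (2.66 and 2.31) were called higher as well. For Trgv1 the STZ call was lost in 5 of 18 alternatives (edgeR adjusted p up to 0.210, and 0.0519 and 0.0864 without STZ replicates 1 and 5) and the control call in 1 of 17. For Trgv2 the control call was lost in day 1 alone and with only the 2 groups (edgeR adjusted p = 0.0526 and 0.0795), and the STZ call under the replicate block (0.0885). The log2 values of Trgc1, Trgc3 and Trgv2 depend on libraries with 0 or a few counts in T cells alone, and without replicate 1 of T cells alone, which holds most of that group's Trgc2, Trgc3 and Trgv2 signal, they became 9.02, 7.39 and 8.62 for control against T cells alone. Per kilobase of exon, Trgc4 averaged 7.75 CPM in T cells alone, 184 in control and 203 in STZ co-cultures, and Trgc1 0.391, 132 and 138. Over their aligned bases Trgc1 and Trgc3 are 96.9% identical and Trgc2 and Trgc3 94.9%, so reads may be split among them, while Trgc4 is 66.5% identical to its nearest neighbour.

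Gamma counts amounted to 0.248%, 0.0511%, 0.0601% and 0.0426% of the receptor total in T cells alone, 2.51%, 2.53%, 5.23% and 2.70% in control co-cultures, and 3.22%, 5.99%, 6.09%, 6.07% and 3.09% in STZ co-cultures. The 4 co-culture libraries of batch day 2 held 5.23% to 6.09% and the 5 of day 1 held 2.51% to 3.22%, with no overlap. Neither Trgc1 (−0.21, edgeR adjusted p = 0.803) nor Trgc4 (−0.56, edgeR adjusted p = 0.421) was called between STZ and control co-cultures, and without the batch term both values changed sign (0.06 and 0.14). In the same model, the batch term (day 2 over day 1 in co-cultures) called 3 members higher and none lower, against 3.15% of all tested genes called in either direction (2.10% higher). These were Trgc4 (1.94, edgeR adjusted p = 0.0446), Trbv31 (1.64, edgeR adjusted p = 0.0273) and Trav7d-4 (2.04, edgeR adjusted p = 0.0385). This batch comparison was looked at after the Trgc4 values had been seen. Leaving out any 1 co-culture library left at most 1 of the calls, beside 0.0319% to 2.52% of all tested genes called. The edgeR adjusted p of Trgc4 then ran from 0.0618 to 0.177.

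The delta constant gene was not called in any of the 3 comparisons. Trdc (chr14:54142851-54148868, plus strand), which T cells with a gamma-delta receptor express from an intact locus, read 24.3, 12.9, 29.7 and 25.5 CPM in T cells alone, 36.8, 26.8, 40.1 and 29.6 in control co-cultures, and 13.2, 24.7, 29.0, 25.6 and 13.3 in STZ co-cultures. All groups overlapped (edgeR adjusted p = 0.331 for control and 0.107 for STZ against T cells alone, 0.140 for STZ against control). Of the gamma-delta markers that are no receptor genes, Sox13 was at most 2.56 CPM in any library and was called higher in both co-culture groups (2.99 and 4.24 on the log2 scale, edgeR adjusted p = 0.0253 and 0.00998), Blk was at most 0.581 CPM and at 0 in all 9 co-cultures, and Zbtb16 was at 0 in all 13 libraries. The summed level of these 3 markers was 0 to 0.604 CPM in T cells alone, 0.123 to 1.84 in control and 1.06 to 2.56 in STZ co-cultures. Markers of CD8+ T cells and NK cells (Cd8a, Cd8b1, Ncr1, Klrb1c, Klrk1 and Eomes) summed to 15.7 to 39.9 CPM in T cells alone, 35.6 to 139 in control and 44.7 to 104.7 in STZ co-cultures. The members of that sum did not move together. Klrk1, an activating receptor of NK and activated T cells, read 0 to 1.33 CPM in T cells alone and 4.03 to 95.5 in the co-cultures, Eomes 0 to 0.555 and 4.55 to 16.7, and Cd8a 0 to 0.621 and 0.637 to 9.28. Cd8b1 read 15.7 to 36.4 CPM in T cells alone, 16.4 to 23.3 in control and 10.4 to 13.9 in STZ co-cultures, and Klrb1c was at most 3.11 in T cells alone and 0.338 in the co-cultures. Of the regulatory T cell markers, Foxp3, the defining transcription factor, read 1.76, 1.98, 1.83 and 0.502 CPM in T cells alone, 107, 54.5, 14.9 and 59.3 in control co-cultures, and 5.29, 11.6, 18.8, 20.2 and 6.84 in STZ co-cultures. The summed level of Foxp3, Ikzf2, Il2ra and Ctla4 (1.98 to 4.96 CPM in T cells alone, 1364 to 3512 in control and 1524 to 2611 in STZ co-cultures) was mostly Il2ra, which activated T cells also express and which read 1183 to 3314 CPM in control and 1391 to 2514 in STZ co-cultures. The part of these cell types in the gamma values was not tested. Of Trdc's exon bases, 7.84% overlap antisense annotations.

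**Figure D3:**
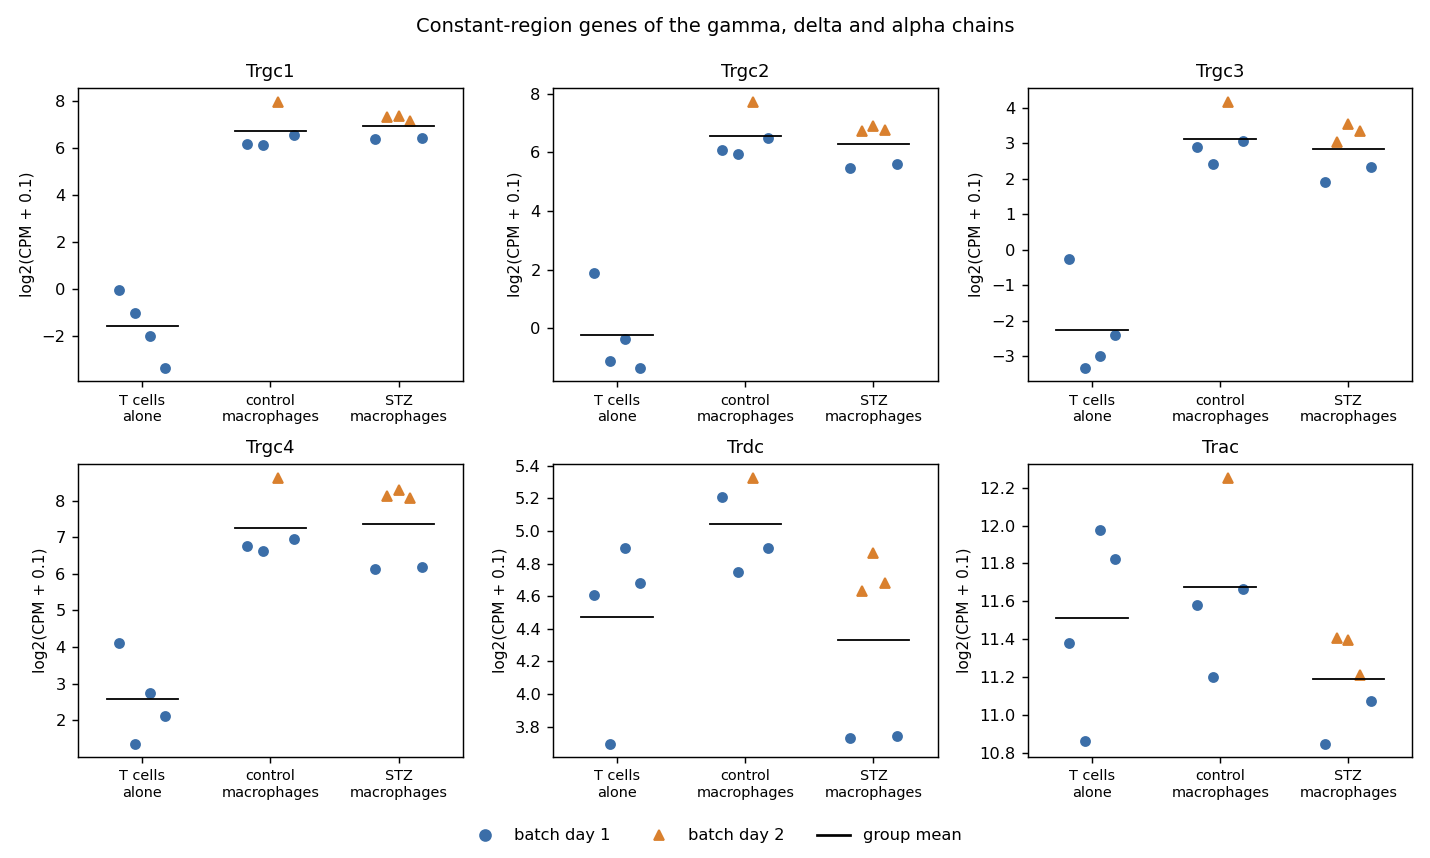
Level of the 4 gamma constant genes, Trdc and Trac in each library, as log2(CPM + 0.1), with axes scaled separately for each gene. Circles are batch day 1, triangles batch day 2 and bars the means of the plotted log2 values. All 9 co-cultures lie above all libraries of T cells alone for Trgc1, Trgc2, Trgc3 and Trgc4, and for Trdc and Trac the groups overlap.

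Co-culture with control macrophages against T cells alone called 9 members higher and 4 lower of 137, against 45.0% of all tested genes called in either direction. The higher members were the 4 Trgc genes, Trgv1, Trgv2, Trav10, Trav10d and Trav14d-3-dv8, and the lower were Trbv13-1, Trbv20, Trbv5 and Trdv2-2. The median log2 difference of the tested members was −0.02, beside −0.13 for all tested genes. Trac (−0.02), Trbc1 (−0.06), Trbc2 (0.03), Trbv2 (0.19) and Trav7n-6 (−0.19) were not called, with edgeR adjusted p between 0.488 and 0.959.

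Trdv2-2 (chr14:53960944-53961602, plus strand), a delta V segment, read 6.13, 8.44, 12.7 and 13.6 CPM in T cells alone, 0.846, 1.69, 1.83 and 1.22 in control co-cultures, and 0.502, 1.87, 1.36, 1.08 and 1.18 in STZ co-cultures. All co-cultures were below all libraries of T cells alone. The difference was −3.05 for control co-cultures (SE 0.44, edgeR adjusted p = 0.00013) and −3.53 for STZ co-cultures (SE 0.49, edgeR adjusted p = 0.00011), and it was called under every alternative run. Of its exon bases, 26.4% overlap the antisense gene Gm43647, and no strand setting of the counting is given in the sources used here.

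The lower beta V segments were rare in every library. Trbv5 read 0.276, 2.48, 5.41 and 3.15 CPM in T cells alone, 0, 0.673, 1.30 and 0.198 in control co-cultures and at most 0.924 in STZ co-cultures, and 79.3% of its exon bases are shared with the annotation 5830405F06Rik. Trbv20 read 0.245, 1.95, 1.01 and 1.17 CPM in T cells alone and 0 to 0.370 in control co-cultures. Trbv13-1 read 0, 2.75, 2.26 and 2.86 CPM in T cells alone, 0 to 0.103 in control co-cultures and 0.431 to 1.41 in STZ co-cultures. Replicate 1 of T cells alone was thus the lowest library of its group for each of these segments. Their log2 differences were −3.30, −4.46 and −5.49 for control against T cells alone (edgeR adjusted p = 0.0201, 0.0073 and 0.0043), and Trbv20 kept its call in all 15 alternatives. The Trbv13-1 call was lost under the replicate block (edgeR adjusted p = 0.134). The Trbv5 call was lost in 5 of 16 alternatives: without the batch term (−2.37, edgeR adjusted p = 0.104), in day 1 alone (0.0916), with only the 2 groups (0.0994), without replicate 3 of T cells alone (−2.75, 0.0569) and without control replicate 4 (0.0641).

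Among the alpha segments, Trav10 was higher in control co-cultures by 1.10 (SE 0.36, edgeR adjusted p = 0.0263), with 4.19, 5.22, 11.1 and 9.22 CPM in T cells alone and 15.2, 10.4, 9.97 and 22.7 in control co-cultures, ranges that overlap. Its copy Trav10d differed by 1.10 and Trav14d-3-dv8, a segment usable by both alpha and delta chains, by 0.75. With 1 library left out, the edgeR adjusted p rose to as much as 0.102 for Trav10 and 0.123 for Trav10d, which ended their calls, and to 0.0468 for Trav14d-3-dv8, which kept its own. Over all 17 alternatives the call was lost in 7 for Trav10, 10 for Trav10d and 3 for Trav14d-3-dv8, whose value fell as low as 0.43.

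**Figure D4:**
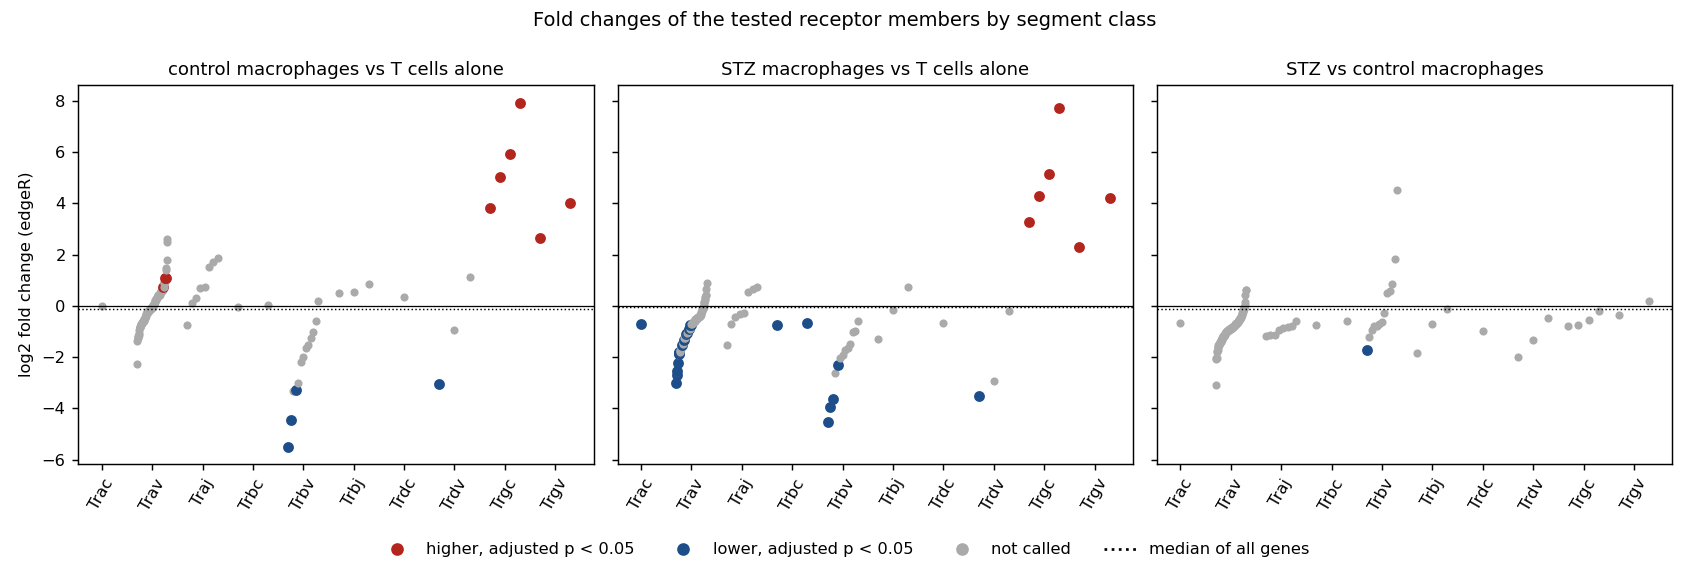
The log2 fold change of every tested member in the 3 comparisons, ordered within each segment class. Red and blue points have an edgeR adjusted p under 0.05, grey points do not, and the dotted line is the median of all tested genes. The 4 Trgc and 2 Trgv members are red in both comparisons with T cells alone, and 1 member, Trbv31, is coloured between STZ and control co-cultures.

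Co-culture with STZ macrophages against T cells alone called 6 members higher and 22 lower of 137, against 43.1% of all tested genes called in either direction (20.8% higher and 22.3% lower). The higher members were the 4 Trgc genes with Trgv1 and Trgv2. The lower members were 14 Trav and 4 Trbv segments, Trdv2-2, Trac, Trbc1 and Trbc2. The members' median was −0.70, beside −0.05 for all tested genes. Both comparisons with T cells alone share those 4 libraries.

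The abundant constant genes and the leading alpha V segment differed by less than 1 on the log2 scale: Trac by −0.70 (SE 0.25, edgeR adjusted p = 0.0393), Trbc1 by −0.66 (SE 0.23, edgeR adjusted p = 0.0347), Trbc2 by −0.73 (SE 0.23, edgeR adjusted p = 0.0200) and Trav7n-6 by −0.92 (SE 0.30, edgeR adjusted p = 0.0245). Trbv2, at −0.59, was not called (edgeR adjusted p = 0.0523). These calls were fragile: of 18 alternatives, 3 kept Trac, 3 Trbc1, 8 Trbc2 and 6 Trav7n-6. The larger differences were in low members. Trav8-2, annotated as a pseudogene, read 3.77, 0.887, 3.73 and 2.86 CPM in T cells alone and 0.125 to 1.80 in STZ co-cultures (−2.69, edgeR adjusted p = 0.0093), and Trav7d-4 read 1.90 to 3.40 and 0.607 to 2.13 (−2.54, edgeR adjusted p = 0.0012). Trav13-5 (−3.01), Trav8d-2 (−2.22), Trav3-1 (−1.89), Trbv5 (−4.51), Trbv1 (−3.95) and Trbv20 (−3.62) were called lower too, and Trbv1 kept its call in 5 of 17 alternatives. Trav13-5 had 100 counts in replicate 1 of T cells alone and 7.41, 25 and 19 in replicates 2 to 4. Its call was lost in 4 of 17 alternatives, with values up to −1.77. With 1 library left out, its edgeR adjusted p rose to as much as 0.0569. Trav8-2 and Trav8d-2 each lost the call in 2 of 18 alternatives. Trav7d-4 lost its call without the batch term (−1.18, edgeR adjusted p = 0.167) and with limma on the authors' adjusted values (−0.88, limma adjusted p = 0.128). Trav3-1 lost it under the replicate block (−1.41, edgeR adjusted p = 0.179), in day 1 alone (−1.65, 0.0559) and with limma (−0.61, limma adjusted p = 0.314). Trbv5 lost it in 3 alternatives, with values up to −2.59, and Trbv20 in 5, with values up to −2.04, and both calls ended without the batch term, with the replicate block and in day 1 alone.

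STZ against control co-cultures called 0 members higher and 1 lower of 137, against 0.323% of all tested genes called in either direction. The member was Trbv31 (chr6:41557691-41558452, minus strand), the V segment that lies beyond Trbc2 in the opposite orientation and rearranges by inversion. It read 5.61, 5.06, 7.42 and 5.20 CPM in T cells alone, 4.68, 3.17, 13.01 and 3.59 in control co-cultures, and 1.25, 3.10, 4.15, 3.66 and 1.22 in STZ co-cultures. Control and STZ libraries overlapped over both batches, but within day 1 the 3 control libraries (3.17 to 4.68) were above both STZ libraries, and within day 2 the single control library was above all 3 STZ libraries. The difference was −1.71 (SE 0.29, edgeR adjusted p = 0.0341). Leaving out any 1 of the 9 co-cultures ended the call (edgeR adjusted p from 0.0714 to 0.200), with log2 differences between −1.78 and −1.47. Against T cells alone, Trbv31 was lower in STZ co-cultures by 2.29 (SE 0.33, edgeR adjusted p = 0.00016) and was not called in control co-cultures (−0.58, edgeR adjusted p = 0.129). All libraries of T cells alone are of day 1, so the STZ value depends on the batch term. The STZ call was lost without that term (−1.12, edgeR adjusted p = 0.0798) and with limma on the authors' adjusted log2 values (−0.67, limma adjusted p = 0.0877).

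**Figure D5:**
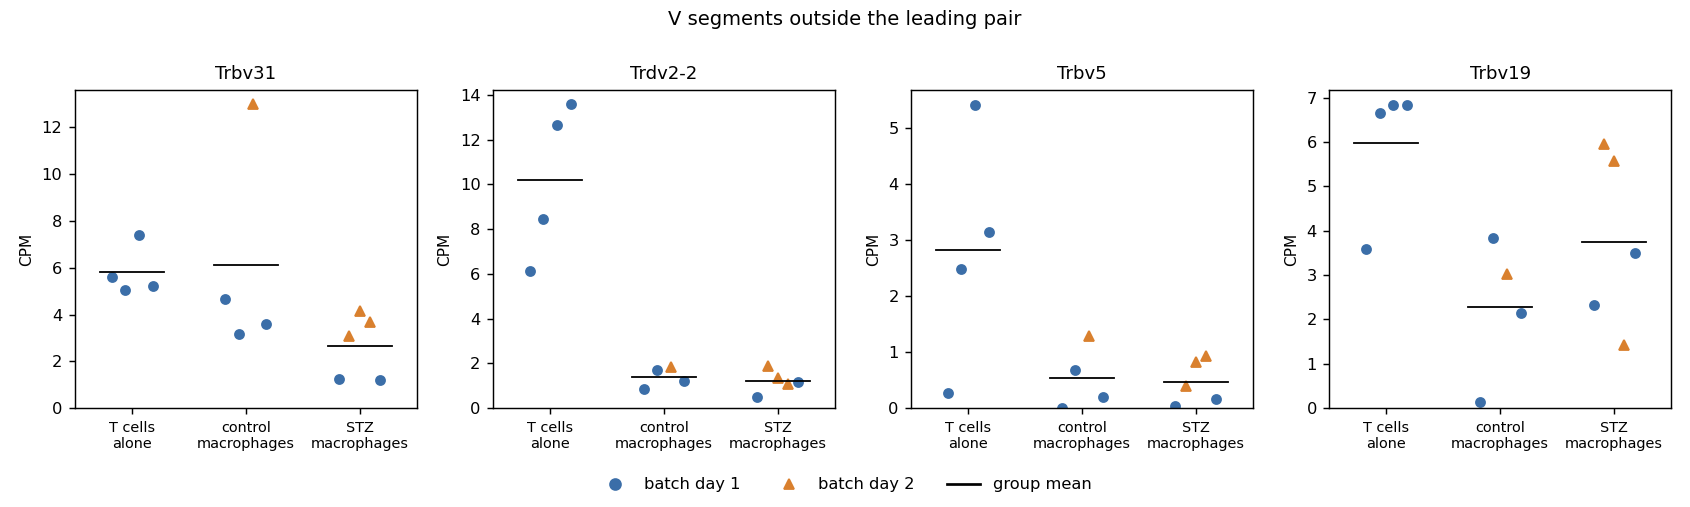
CPM of 4 less abundant V segments in each library, with circles for batch day 1, triangles for batch day 2 and bars for group means. Trdv2-2 is below 2 CPM in every co-culture and above 6 in every library of T cells alone, and the highest Trbv31 value, 13.01, is the day 2 control library.

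Most members had a negative log2 difference in STZ against control co-cultures, although 1 was called. Of 100 tested Trav segments 95 did, as did all 8 Traj, 3 Trbj, 3 Trdv and 4 Trgc members, Trac, Trdc and both Trbc genes, and 8 of 13 Trbv. The members' median was −0.81, beside −0.13 for all tested genes, and 45 of 137 members (32.8%) had an unadjusted edgeR p under 0.05. Among all tested genes, 55.4% had a negative difference and 22.8% an unadjusted edgeR p under 0.05. All 5 STZ libraries were below all 4 control libraries in 23 of 137 members and above them in 1, where the same held for 5.10% and 2.45% of all tested genes. After adjustment, 0.171% of all tested genes were called lower and 0.152% higher. Single values were −0.68 for Trac (edgeR adjusted p = 0.156), −0.61 for Trbc1 (0.161), −0.75 for Trbc2 (0.131), −0.78 for Trbv2 (0.125), −0.72 for Trav7n-6 (0.166), −0.82 for Traj22 (0.212), −0.71 for Trbj1-2 (0.319) and −0.995 for Trdc (0.140), none of them called. Members of 1 receptor are joined in the same transcripts, so these genes are not independent.

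The number of calls depended on which libraries were fitted. When only the 9 co-cultures were fitted, 28 of 129 members were called lower and 1 higher, against 18.1% of all tested genes called in either direction (10.1% higher and 8.06% lower). The members called lower then included Trac (−0.49, edgeR adjusted p = 0.0280), Trbc1 (−0.42, 0.0300), Trbc2 (−0.57, 0.0100), Trdc (−0.81, 0.0320), Trgc2 (−0.58, 0.0252) and Trgc4 (−0.38, 0.0467), and the 1 called higher was Trbv13-1. DESeq2, run without the filter on low counts, called 8 of 178 members, 1 higher and 7 lower, beside 2.33% of 28036 genes called in either direction (1.56% higher and 0.767% lower). With the batch day and group fitted together, no member's STZ effect was called different between the days (0 of 137 called, against 0.00634% of all tested genes), although day 2 rests on 1 control library. An unadjusted edgeR p under 0.05 for that difference was met by 5 of 137 members (3.65%) and by 9.82% of all tested genes. Macrophage markers summed to 4.83 to 51.8 CPM in control and 20.5 to 107 in STZ co-cultures, and their part in the lower receptor share was not tested.

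The other genes of receptor assembly, signalling and recombination were looked at as a list of 30, of which 27 were tested. The share of the list called against T cells alone was 44.4% in both co-culture groups, close to the 45.0% (control) and 43.1% (STZ) of all tested genes. Control co-cultures differed from T cells alone in 4 higher genes (Cd3g, Cd4, Cd8a and Themis) and 8 lower, among them Tcf7, Lef1, Runx1, Ets1, Bcl11b, Dntt and Fyn, and STZ co-cultures in 1 higher (Themis) and 11 lower. Between STZ and control co-cultures, Tcf7, a transcription factor of naive and memory T cells that acts at receptor gene enhancers, was lower (−1.32, edgeR adjusted p = 0.0199) and no other gene of the list was called. Dntt, the terminal transferase that adds bases at V, D and J junctions, read 23.8, 10.6, 31.7 and 33.4 CPM in T cells alone and 0.0190 to 3.51 in the co-cultures. The recombinase genes were at or near 0: Rag1 was at 0 CPM in 12 libraries and 0.0224 in the other, and Rag2 was at 0 in all 13. Ptcra, the surrogate alpha chain of thymocytes, was at most 0.245 CPM. The CD4 T cell markers Cd4, Cd3e, Cd3g, Cd28, Thy1 and Cd40lg summed to 2645 to 5058 CPM in T cells alone, 3921 to 6836 in control and 3216 to 4036 in STZ co-cultures, so markers of the sorted cell type were abundant in every library.

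A share at least 5 times the median of the other libraries and at least 1% of the class was met in 20 cases over 7 members (Traj27, Traj42, Traj49, Trbj2-4, Trdv4, Trdv5 and Trgv5), each with at most 17 counts. The limit of 1% leaves out nearly all Trbv segments other than Trbv2 and rare alpha segments such as Trav2, which held 0.535% of Trav counts in replicate 1 of the control co-cultures.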

How the data were processed

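Bulk RNA-seq of sorted CD4+ T cells was read from the authors' deposited tables. The first holds the authors' estimated counts per gene symbol, as deposited, made from reads of 150 bases aligned to Ensembl GRCm38, per the labels' protocols. Of its values 11% are not whole, and no source used here names the counting tool. The second holds the authors' deposited log2 values after an adjustment, which served only as an alternative. DESeq2 is named in the submitters' processing notes without a role.

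Counts were rounded, filtered with filterByExpr, scaled by TMM and fitted with edgeR 4.0.16 (R 4.3.3; quasi-likelihood test, group plus batch day, 13 libraries), with Benjamini-Hochberg adjustment over all 15781 genes and calls at adjusted p under 0.05. The script was tested on simulated data. CPM values use scaled library sizes. Shares were compared by exact two-sided permutation tests over libraries (Python 3.11.15).

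Members and lists were chosen with earlier results of these data known. Named members are all constant genes, the 3 most abundant segments per class, up to 10 called members per direction and comparison, and single-library shares. Coordinates and sequences are from GENCODE vM21; 176 of 178 kept members matched, 7 through a RefSeq synonym, and 7 kept members are annotated pseudogenes. The tests of the batch term, scaling by library size alone and the summed Trav7-6 copies (also within batch day) were added after the data had been seen.

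Replicate numbers are shared across groups. Same-numbered libraries of control co-cultures and T cells alone deviated together (r = 0.304, 0.496, 0.457 and 0.287 over genes). Some differently numbered ones did so as well: control replicate 3 with replicate 4 of T cells alone (r = 0.601), 2 with 1 (0.384) and 1 with 2 (0.291). The values thus do not single out a pairing by number, and the labels give none. For STZ and control co-cultures 1 of the 4 same-numbered pairs was negative (r = −0.289). Alternatives were other scalings, no filter, no batch term, the replicate block, day 1 only, 2 groups only, DESeq2 1.42.0, limma 3.58.1 on the log2 values and leaving out each library. Some listed genes are not reported here.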

Additional observations from a re-analysis of the deposited data

Results flagged for a closer look

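In 96 groups of 4 or 5 library values, 11 values stood apart from the rest of their group by Dixon's criterion, which chance alone meets in about 1 of 20 groups. The groups are not independent, since they share libraries and the gamma share contains the Trgc and Trgv genes also examined. Whether 11 exceeds chance was therefore not tested.

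The day 2 control co-culture accounts for 4 of them. It held 253 CPM of Trgc1 against 69.6 to 94.8 in the other control libraries, 395 CPM of Trgc4 against 98.2 to 123, 13.01 CPM of Trbv31 against 3.17 to 4.68, and a gamma share of 5.23% of receptor counts against 2.51% to 2.70%. It is the single control library of its batch.

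Replicate 1 of T cells alone accounts for 5. It held 3.62 CPM of Trgc2 against 0.292 to 0.668, 0.735 CPM of Trgc3 against 0 to 0.0877, 1.197 CPM of Trgv2 against 0 to 0.0224, a gamma share of 0.248% against 0.0426% to 0.0601%, and a delta share of 0.339% against 0.363% to 0.367%.

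The others are STZ replicate 3, with 0.825 CPM of Trbv20 against 0.0554 to 0.171, and STZ replicate 5, in which Traj22 held 64.1% of Traj counts against 73.7% to 76.5%.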

How the results depend on the processing

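The count of members called between STZ and control co-cultures was 1 with all 13 libraries, beside 0.323% of all tested genes. It was 0 without the filter (beside 0.228% of all tested genes), without the batch term (0.120%), with the replicate block (0.00%) or in day 1 alone (0.0410%). With any 1 library left out it was 0 (0.00% to 0.530%). With only the 2 groups it was 29 of 129 (18.1%), and with DESeq2 8 of 178 (2.33%). For control co-cultures against T cells alone it was 13 in the main fit, beside 45.0% of all tested genes. It was 5 with only the 2 groups (beside 33.0%) and 13 with the replicate block (37.3%). DESeq2 called 25 of 178 (13 higher, 12 lower, beside 30.0% of all genes). Limma on the authors' log2 values called 34 of 76 (32 higher, 2 lower, beside 70.7% of all genes). With 1 library left out the count was 11 to 18 (beside 34.8% to 47.2%). For STZ co-cultures against T cells alone it was 28 in the main fit, beside 43.1% of all tested genes. It was 18 of 178 without the filter (beside 22.4%), 7 with the replicate block (22%) and 10 of 156 in day 1 alone (28.1%). It was 15 of 132 with only the 2 groups (33.4%) and 16 of 76 with limma (56.2%). With 1 library left out it was 16 (without replicate 3 of T cells alone) to 41 (without replicate 1), beside 32.9% to 49.8%. Without the filter, with the replicate block, in day 1 alone and with only the 2 groups, fewer of all tested genes were called as well. The batch term called 1 member under RLE scaling (beside 0.951% of all tested genes), 0 without the filter (0.877%) and 0 to 1 with 1 library left out (0.0319% to 2.52%). The day difference of the STZ effect rests on 1 day 2 control library and could not be fitted without it.

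Shares: with the 3 Trav7-6 copies summed, STZ exceeded T cells alone by 0.0475 points (exact p = 0.976) and control by 4.43 (exact p = 0.0635, or 0.0250 permuted within day). As a share of the receptor total, Trbv2 in STZ co-cultures differed from T cells alone by −0.0777 points (exact p = 0.905). For the same comparison in day 1 alone, the Trbv2 share of its class differed by 1.53 points (exact p = 0.2). With 1 library left out, the unadjusted exact test crossed 0.05 in some cases for Trav7n-6, STZ against control (2.12 to 3.80 points), Trbv2, control (1.20 to 2.05) and STZ (1.02 to 1.88) against T cells alone, and Trbc1, control against T cells alone (−1.62 to −0.447).

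Signs turned for Trgc4 (0.14) and Trgc1 (0.0612) in STZ against control without the batch term, for Trgc1 (0.26) in day 1 alone, and for Trac (0.0122), Trav7-6 (0.13) and Trav7d-6 (0.14) in STZ against T cells alone with limma. All 4 Trgc genes and Trdv2-2 kept their calls against T cells alone in every alternative. Library-size scaling moved the all-gene median of control against T cells alone from −0.13 to −0.45. It split the member calls 6 higher and 7 lower, beside 18.5% and 29.4% of all tested genes. RLE moved the all-gene median of STZ against T cells alone from −0.05 to 0.11 (6 members higher and 14 lower, beside 23.5% and 19.5%).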
